A study of Mus musculus with 6 samples.

Results

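Potassium channel genes were examined in the cerebral cortex of mice with and without the homeodomain transcription factor Cux2, which marks neurons of the upper cortical layers. The members are all genes whose name in the array files begins with Kcn, and the class names below follow those symbols. They came to 84 genes of the 27962 gene names on the array, measured by 123 probes of 41174. Where a gene had several probes, the probe with the brightest mean signal over all 6 arrays stood for it, among those that could be tested where there were any, and its other probes were read separately.

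The comparison rests on 6 samples of total RNA from dissected cerebral cortex of male mice, each on its own 1-colour Agilent array. The 3 samples labelled knock-out (53, 48 and 54) have the genotype Cux2-/-. The 3 controls (15, 62 and 16) are titled WT, while their genotype label reads Cux2+/-, and the labels do not settle which holds. Age, strain and the construction of the allele are not given in the sources used here. Separate animals are not stated either, and the p-values therefore speak of variation among these 6 samples, which may be technical.

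Potassium channels let potassium leave or enter the cell along its gradient, which sets the resting potential and ends the action potential. Voltage-gated subunits open on depolarisation, inward rectifiers and tandem pore domain channels act near rest, and further channels respond to calcium or sodium inside the cell. Accessory subunits do not form a pore and change the trafficking or gating of the channels they join. In cortex, fast-spiking interneurons are known for Kv3 channels, dendrites of pyramidal cells for Kv4 channels, and astrocytes for the inward rectifier Kcnj10.

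Start-site sequences are shown for 4 members, Kcnh5 and Kcna4 because only their representative probes had an unadjusted p under 0.05 below, and Kcns1 and Kcnh7 because they are the tested members that carry the letters ATCGAT. Each is the 250 bases before the annotated start of the gene, 5′ to 3′ on the gene's strand, from RefSeq on the build GRCm38.p6. Capitals mark ATCGAT or ATCAAT, letters known from binding studies of Cut-family homeodomain proteins, to which Cux2 belongs.
Kcnh5 (chr12:75177333-75177582, minus strand): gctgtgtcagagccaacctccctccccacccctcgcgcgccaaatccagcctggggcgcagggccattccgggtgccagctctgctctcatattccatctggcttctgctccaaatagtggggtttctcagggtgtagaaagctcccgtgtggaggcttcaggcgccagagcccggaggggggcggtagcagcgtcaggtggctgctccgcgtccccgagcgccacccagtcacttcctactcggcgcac
Kcna4 (chr2:107290339-107290588, plus strand): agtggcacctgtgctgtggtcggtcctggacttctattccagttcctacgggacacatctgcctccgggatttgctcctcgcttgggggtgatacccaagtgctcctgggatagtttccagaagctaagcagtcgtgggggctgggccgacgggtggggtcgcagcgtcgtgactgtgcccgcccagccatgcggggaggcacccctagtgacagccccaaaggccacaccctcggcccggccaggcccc
Kcns1 (chr2:164171114-164171363, minus strand): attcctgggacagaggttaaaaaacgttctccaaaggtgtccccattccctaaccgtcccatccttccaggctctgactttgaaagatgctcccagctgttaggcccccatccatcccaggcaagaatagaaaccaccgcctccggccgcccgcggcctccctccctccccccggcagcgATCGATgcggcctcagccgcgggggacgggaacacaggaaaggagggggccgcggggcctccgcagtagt
Kcnh7 (chr2:63184288-63184537, minus strand): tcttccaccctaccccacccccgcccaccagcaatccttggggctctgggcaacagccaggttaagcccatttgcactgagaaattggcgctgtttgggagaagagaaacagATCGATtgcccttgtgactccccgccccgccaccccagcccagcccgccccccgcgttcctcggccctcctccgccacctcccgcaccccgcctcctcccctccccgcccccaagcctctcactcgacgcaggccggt

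Both strands of such a 250-base window were searched for the letters ATCAAT and ATCGAT, the latter its own reverse complement, in the 62 members with an entry in the RefSeq start-site table. ATCAAT was present in 5 of them (8.06%), against 7.72% of 27025 genes in the table. ATCGAT was present in 3 (4.84%), Kcns1, Kcnh7 and Kcnk5, against 0.836% of all genes. Either string was present in 8 members (12.9%, against 8.48%), none with both, and the members' windows had a median GC content of 60.0% against 52.4%. Neither string occurs in the windows of Kcnh5 and Kcna4 printed above. The windows of Kcns1 and Kcnh7 hold ATCGAT at 70 and 138 bases before the start, and the array differences of these genes were 0.20 (adjusted p = 0.852) and 0.10 (adjusted p = 0.915) on the log2 scale by limma. These matches describe letters and were tested for no relation to the array values.

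Values below are log2 of the processed signal minus the 75th percentile of the same array, so a value of a probe can be compared between samples but not with that of another probe. A probe counts as detected on an array where the scanner software flagged it well above background. Between 58.6% and 72.8% of all probes were detected per array, 0 spots were saturated, and no member's spot carried an outlier flag. Neuronal marker transcripts of cortex (Snap25, Slc17a7, Neurod6, Rbfox3, Syt1 and Emx1) were all detected on all 6 arrays. The 2 probes of Cux2 gave differences of -0.12 (adjusted p = 0.838) and 0.08 (adjusted p = 0.947) by limma, and since the place of the probes relative to the mutation is not known here, they check nothing about the labels. Marker lists of cell types, chosen with earlier results of these data known, were read beside the members. All 10 microglial and all 10 striatal markers had lower knock-out means, with mean differences of -0.46 and -0.48 (8 and 10 of 10 lower with no scaling between arrays). The striatal markers stood high in controls 15 and 62 (mean deviations 0.50 and 0.46), while control 16 (-0.24) lay within the range of the knock-outs (-0.37 to -0.10). Lower means held for 9 of 10 markers of deep-layer neurons and 7 of 9 of upper-layer neurons. With no scaling these were 4 of 10 and 2 of 9. An unadjusted p under 0.05 was reached by 3 and 2 of these markers, against 8.27% of all genes, and 0 passed the adjusted threshold (limma). The part of all these cell types in the members' values was not tested.

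By their brightest probe, 65 of the 84 potassium channel genes were detected on all 6 arrays, 13 on 1 to 5 arrays and 6 on no array. Detection on all 6 arrays held for 57.9% of all genes on the array. The last include Kcnv2, Kcnj1, Kcnj5 and Kcnk16, and Kcng3, whose second probe was detected in 1 control. Testing required a probe detected on every array of the controls or of the knock-outs, which 68 members met with 96 probes, 3 of these genes (Kcna3, Kcne4 and Kcnh6) without detection on every array. The 16 that were not tested also include genes whose brightest probe was detected on some arrays: Kcnd1, Kcne1, Kcnh8, Kcnj15, Kcnk5, Kcnk7, Kcnmb1, Kcnn3, Kcnn4 and Kcnq3. As a description of probe brightness and not of transcript abundance, 58 of the 84 members lay above the median of all probes in the controls. Members stand there by their brightest probe while the median runs over all probes, so no excess is read from that count.

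**Figure D1:**
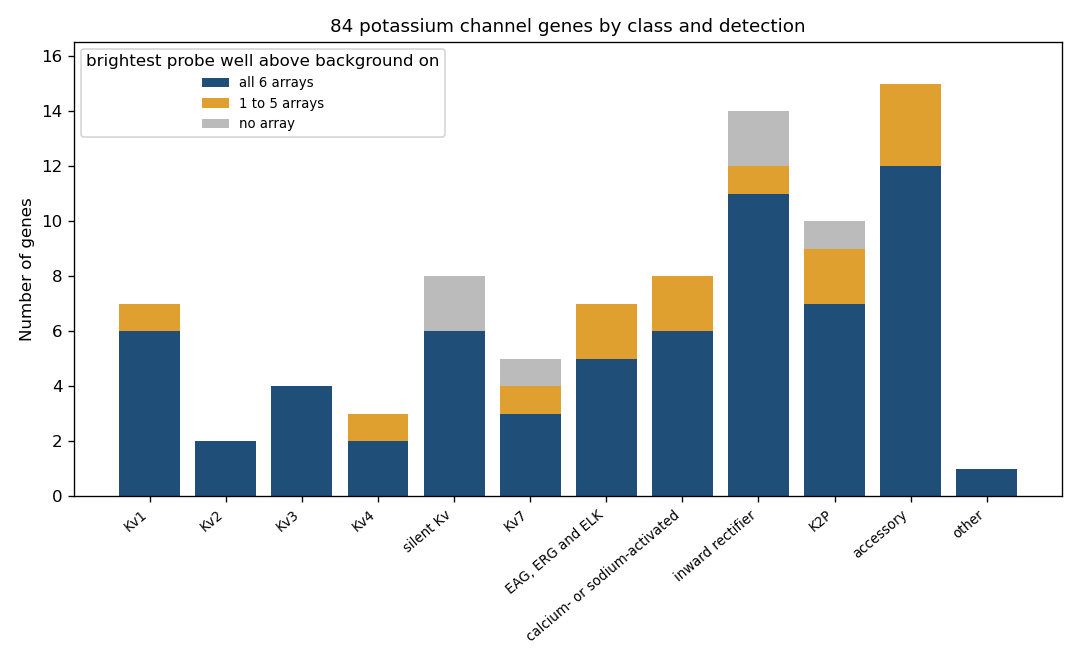
Number of potassium channel genes (vertical axis) in each class (horizontal axis), coloured by the number of arrays on which the gene's brightest probe was well above background. All Kv3 genes were detected on all 6 arrays, and 65 of the 84 genes overall.

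No potassium channel gene passed an adjusted p of 0.05 in limma, against 0.133% of all 17267 genes tested. Of the 68 tested members, 34 had a higher and 34 a lower mean in the knock-out (higher in 48.1% of all genes), and the median difference was -0.0027 on the log2 scale, against -0.0060 over all genes. That split was 26 higher and 42 lower with scaling by the array median, 44 and 24 with normexp, and 60 and 8 with no scaling, which shifts all genes by 0.17. An unadjusted p under 0.05 was reached by 2 members (2.94%), Kcnh5 and Kcna4, both higher in the knock-out, against 8.27% of all genes, of which 3.9% were higher and 4.37% lower. The 3 control and 3 knock-out values did not overlap in 3 members (4.41%), Kcnh5, Kcna4 and Kcnt1, against 13.7% of all genes. Fitted differences ran from -0.49 for Kcne4, detected in only 1 knock-out, to 0.44 for Kcnh5, and 57 of 68 lay within 0.25 of 0.

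The absence of calls is bounded by the intervals of the differences. The 95% interval lay within a 1.5-fold change either way in 52 members (76.5%), against 79.3% of all genes, and within 2-fold in 65 (95.6%), against 93.3%. The median standard error was 0.12 among the members and 0.11 over all genes. In data simulated for this comparison over 25518 probes, 20% of probes changed 1.5-fold were called and 86% of those changed 2-fold. Most changes of the smaller size were thus not called in such data. The simulated noise was drawn separately for each probe at its own SD within groups. It held no slide or tissue differences shared between probes, so the shares called in the real arrays may differ.

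**Figure D2:**
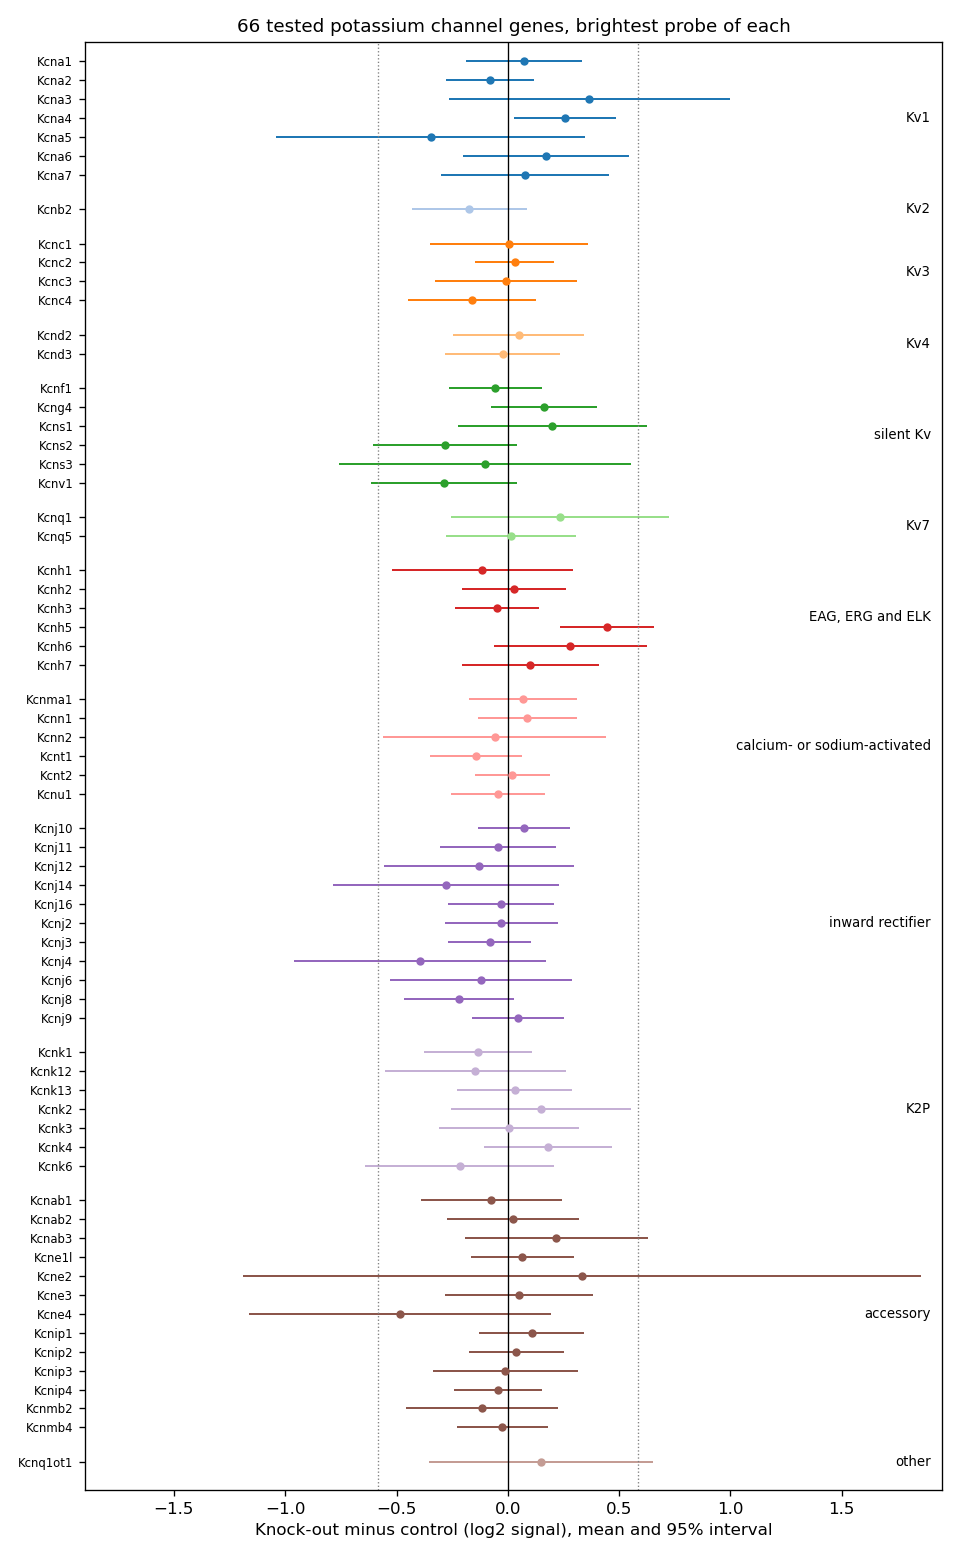
Knock-out minus control difference (log2, horizontal axis) of 66 tested potassium channel genes, grouped and coloured by class. Points are the fitted mean difference and lines its 95% interval (3 samples per group), the solid line is 0 and the dotted lines are 1.5-fold. The intervals of Kcnh5 and Kcna4 lie above 0, and those of the other 64 cross it.

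Among voltage-gated channels of the EAG, ERG and ELK group, Kcnh5, a subunit of the EAG channels, had the smallest p of all members' representative probes. Its log2 signal was -1.17, -1.21 and -1.38 in controls 15, 62 and 16 and -0.87, -0.79 and -0.76 in knock-outs 53, 48 and 54. All knock-out values lay above all control values. The difference was 0.44 with a standard error of 0.09 (95% interval 0.23 to 0.65), a ratio of 1.36, with adjusted p = 0.228 by limma. Within the slides, which each hold both groups, it was 0.40 and 0.42, and leaving out each sample in turn gave 0.38 to 0.48. Kcnh5 was listed among the members to be described with an earlier result of these samples known, so the value is not independent support for a change.

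The other members of that group gave no like pattern. Kcnh6, an ERG subunit, differed by 0.28 (adjusted p = 0.712) with knock-out detection on 2 of 3 arrays. Kcnh1, the EAG subunit most like Kcnh5, had -0.11 at its brightest probe (adjusted p = 0.93) and near 0 (0.004) at its second. By their brightest probes Kcnh2, Kcnh3 and Kcnh7 lay between -0.05 and 0.10. A second Kcnh3 probe gave -0.26 (adjusted p = 0.642 by limma). Its groups did not overlap, with the highest knock-out (-1.213) just below the lowest control (-1.210). In total 4 of 6 tested genes were higher and 2 lower.

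Of the Kv1 genes, which encode channels that open at low depolarisation in axons and terminals, all 7 were tested, 5 higher and 2 lower. Kcna4 (Kv1.4), whose channels inactivate fast, had values of 0.74, 0.56 and 0.67 in the controls and 0.80, 0.90 and 1.04 in the knock-outs. The groups did not overlap, but the lowest knock-out and the highest control lay close together. The difference was 0.26 with a standard error of 0.10 (adjusted p = 0.58 by limma), and with slide as a block it was 0.21 (adjusted p = 0.671). Leaving out each sample in turn gave 0.19 to 0.31.

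Kcna1 (Kv1.1), the axonal subunit mutated in an episodic ataxia, was 5.01, 5.01 and 4.80 in the controls and 5.08, 4.85 and 5.11 in the knock-outs. Knock-outs 53 and 54 lay above the controls and knock-out 48 within their range, with a difference of 0.07 and an interval of -0.19 to 0.33 (adjusted p = 0.93). Kcna3 was listed with a wider interval, from -0.27 to 0.997 around 0.37. Knock-out 53 alone was high at -4.05, detection held in 2 of 3 knock-outs, and the other arrays lay between -5.30 and -4.83; without that sample the difference was 0.08. Kcna5 differed by -0.35 (adjusted p = 0.839), with control 15 at -1.47 and the others between -2.74 and -2.31. Without control 15 the difference of Kcna5 was -0.01, and with slide as a block it was -0.58 (adjusted p = 0.50).

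The Kv3 genes, whose channels let neurons fire at high rates, were all tested and differed by -0.16 to 0.03. Kcnc1 (Kv3.1) was 1.68, 2.05 and 2.20 in the controls and 1.86, 2.09 and 1.99 in the knock-outs at its brightest probe. The knock-out values sat inside the control range, with a difference of 0.0035 (95% interval -0.35 to 0.36). A second Kcnc1 probe read 1.11, 1.21 and 1.02 against 1.24, 1.39 and 1.57, which do not overlap, and gave 0.28 (adjusted p = 0.594); the third gave 0.09. Kcnc2 (Kv3.2) spanned only 0.096 over all 6 arrays, from 1.41 to 1.51, and Kcnc4 differed by -0.16 (adjusted p = 0.829).

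Kv4 channels carry the transient current of dendrites. Kcnd2 (Kv4.2) was 3.35, 3.12 and 2.97 in the controls and 3.095, 3.16 and 3.33 in the knock-outs. The groups overlapped, with a difference of 0.05 (95% interval -0.25 to 0.34) and with the second probe likewise overlapping. Kcnd3 differed by -0.02, and Kcnd1 was detected in 1 control only. Kcnb2, a delayed rectifier of the Kv2 class, differed by -0.17 (adjusted p = 0.778).

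**Figure D3:**
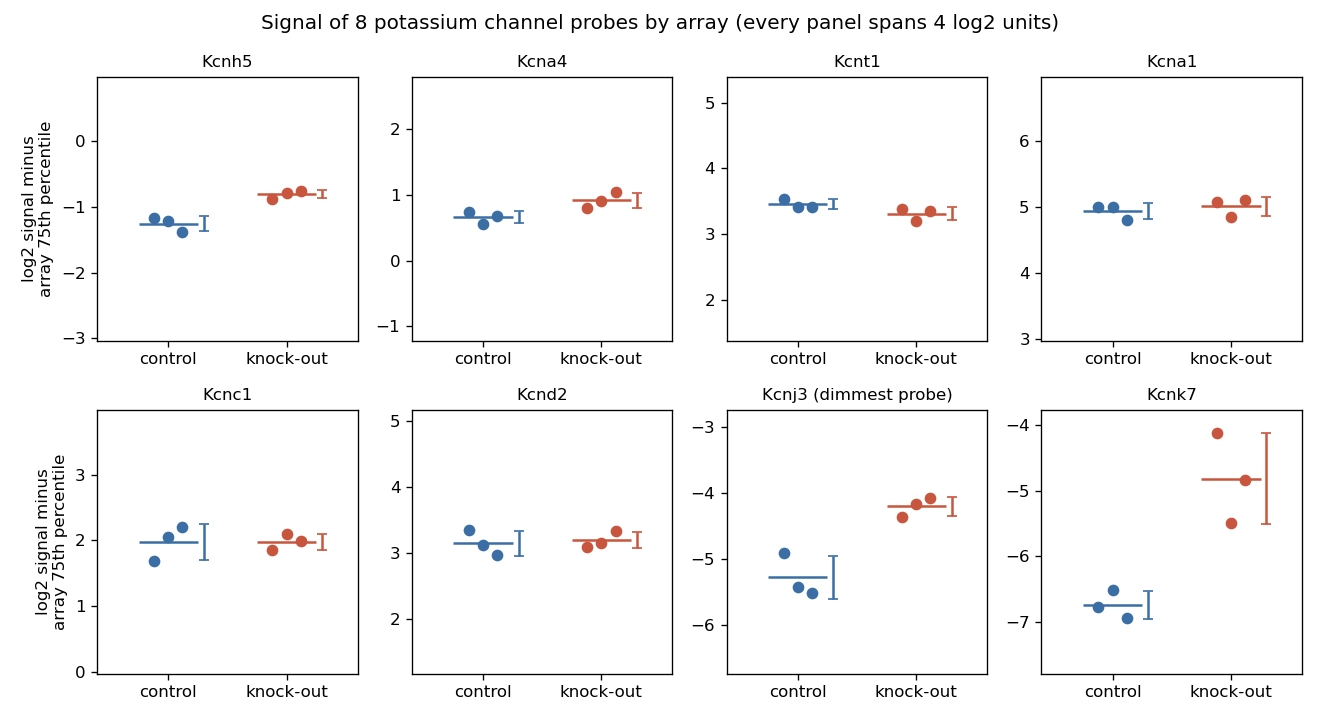
Log2 signal minus the array's 75th percentile (vertical axis) of 8 probes in the 3 control (blue) and 3 knock-out (red) samples, with the group mean as a horizontal line and a bar of 1 SD beside it. Kcnh5 and Kcna4 do not overlap between groups, Kcna1, Kcnc1 and Kcnd2 do, and the last 2 panels show probes that were not detected on every array.

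Silent subunits form no current alone and modify Kv2 channels. Of the 6 tested, 2 were higher and 4 lower, and Kcnf1 spanned 2.03 to 2.25 over all arrays with a difference of -0.06. Kcns2 and Kcnv1 had differences of -0.28 (adjusted p = 0.689) and -0.29 (adjusted p = 0.678) at their brightest probes, and both gave the opposite sign at a second probe, described below. Of the Kv7 genes, which underlie the M current that restrains repeated firing, Kcnq5 differed by 0.01 and Kcnq1 by 0.23 (adjusted p = 0.85). Kcnq1ot1, the non-coding transcript that runs antisense within Kcnq1, differed by 0.15 (adjusted p = 0.924).

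The class named calcium- or sodium-activated was set by symbol, and Kcnu1 was placed in it by its symbol alone. All 6 tested genes of the class had intervals within 1.5-fold, 3 with a higher and 3 with a lower mean. Kcnn2 varied most among them, from 2.71 to 3.50. Kcnt1, a sodium-activated channel, was 3.54, 3.42 and 3.41 in the controls and 3.38, 3.21 and 3.35 in the knock-outs. The groups did not overlap, but the difference was only -0.14 (95% interval -0.35 to 0.06, adjusted p = 0.765), with -0.13 at its second probe. Its relative Kcnt2 spanned 0.086 over all 6 arrays, the tightest member tested. Kcnma1, the pore of the BK channel, differed by 0.07, and Kcnn1, a small-conductance channel, by 0.09.

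Inward rectifiers had a lower mean in the knock-out in 9 of the 11 genes tested, with a median of -0.08, which turned to 3 of 11 and 0.09 with no scaling and was 7 of 11 and -0.01 with normexp. None of them reached an unadjusted p under 0.05. Kcnj8, the pore of an ATP-sensitive channel known from pericytes, read 0.76, 0.93 and 0.62 in the controls and 0.53, 0.49 and 0.63 in the knock-outs. Knock-out 54 lay just above control 16, so the groups overlapped, and the difference was -0.22 (adjusted p = 0.67). Of the 9 vessel and mural cell markers, all detected on all 6 arrays, 6 were higher and 3 lower in the knock-out (9 and 0 with no scaling). Their summed log2 level was 4.88 to 4.97 in controls and 4.90 to 5.10 in knock-outs. Brighter probes weigh more in such a sum, here and below. The 3 lower markers were Rgs5 at -0.14, Pdgfrb at -0.0068 and Vtn at -0.0042. The 6 higher ran from 0.01 for Flt1 to 0.40 for Tek, with Cspg4 at 0.05. The part of vessel cells in the Kcnj8 value was not tested, and in such bulk tissue fewer cells of a type and less RNA per cell cannot be told apart.

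Kcnj4 (Kir2.3) turned on 1 sample. Its values were 5.16, 5.31 and 5.16 in the controls and 5.03, 5.17 and 4.25 in knock-outs 53, 48 and 54. Knock-out 54 stood apart below the other 5, at the second probe too, where it read -1.03 and the others lay between -0.34 and 0.23. The difference was -0.40 (adjusted p = 0.765) with that sample and -0.11 without it, and at the second probe -0.30 with it and 0.03 without. Kcnj10, the main potassium-buffering channel of astrocytes, ranged from 4.09 to 4.26 in the controls and from 4.18 to 4.33 in the knock-outs, a difference of 0.07 with an interval of -0.13 to 0.28. The astrocyte markers had lower knock-out means in 7 of 8 genes (2 of 8 with no scaling). S100b stood at -0.30 (adjusted p = 0.516) and Gfap at -0.58 (adjusted p = 0.525) by limma. Summed levels, in which the brightest probes weigh most, were 7.16 to 7.36 in controls and 7.03 to 7.12 in knock-outs. The G-protein-gated subunits Kcnj9 and Kcnj6 differed by 0.05 and -0.12.

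The tandem pore domain (K2P) genes carry leak currents, and 4 of the 7 tested were higher and 3 lower. Kcnk1 differed by -0.13 and Kcnk4 by 0.18 (adjusted p = 0.796). Kcnk13, known as a channel of microglia, was -0.17, 0.14 and -0.19 in controls and -0.08, 0.01 and -0.07 in knock-outs, a difference of 0.03 with overlapping groups. Microglial markers, by contrast, had lower means in 10 of 10 genes (8 of 10 with no scaling). Of these 10 markers 8 had an unadjusted p under 0.05, against 8.27% of all genes, and 0 passed the adjusted threshold (limma). Their summed levels were 4.96 to 5.30 in controls and 4.58 to 4.70 in knock-outs. This list was chosen with earlier results of these data known, so its counts are not independent support for a change.

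Kcnk7, singled out after its values were seen, was not well above background in any control. Its brighter probe was detected in knock-outs 53 and 54, at -4.12 and -4.84, and read -5.50 in knock-out 48 without detection. Its other probe was detected in the same 2 samples, at -3.42 and -5.40, and read -7.14 in knock-out 48 without detection. The controls read -6.94 to -6.52 at the brighter probe and -7.70 to -7.29 at the dimmer. With no control detection, no fold is read from either probe. Kcnk7 was not tested under the filter used here.

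Accessory subunits had 7 higher and 6 lower means among 13 tested. Kcnmb4, the neuronal beta subunit of BK channels, ranged from 4.93 to 5.11 over all arrays and differed by -0.02. Kcnab3, a cytoplasmic beta subunit of Kv1 channels, differed by 0.22 (adjusted p = 0.836). The Kv4 partners Kcnip1, Kcnip2, Kcnip3 and Kcnip4 lay between -0.04 and 0.11. Kcne4 read -4.63, -5.23 and -5.22 in controls and -5.90, -4.94 and -5.70 in knock-outs, only 1 of which detected it. Its fitted difference was -0.49, and -0.68 with slide as a block. It entered the test only through the controls, where it is high, and its knock-out level is mostly not above background, so no fold or p is read from it.

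Kcne2, an accessory subunit known from the choroid plexus epithelium, varied most of the tested members, over a range of 2.37 on the log2 scale that each group spread across. It read -1.57, 0.80 and -0.84 in controls 15, 62 and 16 and 0.34, -1.004 and 0.06 in knock-outs 53, 48 and 54. The difference of 0.33 (adjusted p = 0.946) turned to -0.18 when control 15 was left out and grew to 1.002 when control 62 was. Markers of choroid plexus, 6 in all (Ttr, Kl, Clic6, Folr1, Otx2 and Sostdc1), 5 of which were detected on all 6 arrays and Otx2 on 5, put the samples in the same order: their mean deviation was -0.84, 0.88 and -0.23 in the controls and 0.60, -0.67 and 0.26 in the knock-outs. Their summed log2 level was 2.29 to 3.64 in controls and 2.15 to 3.53 in knock-outs, and 3 were higher and 3 lower in the knock-out. With slide as a block all 6 were higher (median 0.36) and Kcne2 differed by 0.73, and with no scaling all 6 were higher too. Ttr, the most abundant transcript of that epithelium, read 0.89, 2.26 and 1.202 in the controls and 2.42, 0.49 and 1.98 in the knock-outs. The part of choroid plexus RNA in the Kcne2 values was not tested.

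**Figure D4:**
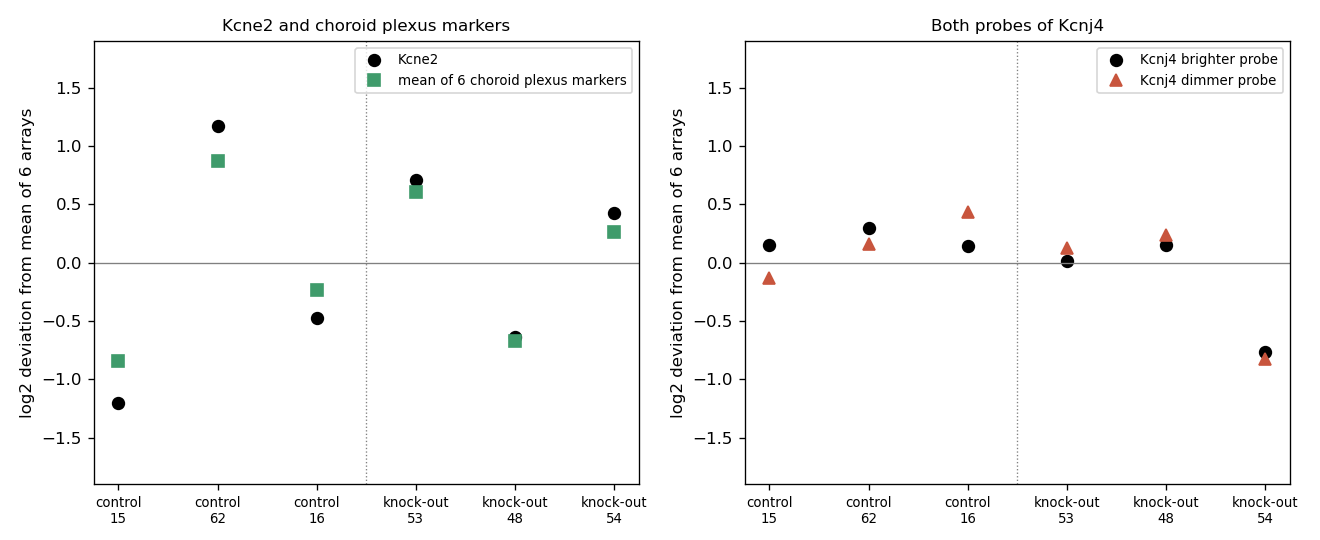
Log2 deviation from the mean of the 6 arrays (vertical axis) in each sample (horizontal axis, controls left of the dotted line), for Kcne2 with the mean of 6 choroid plexus markers (left) and for both Kcnj4 probes (right). Kcne2 and the markers put the samples in the same order, with control 62 highest and control 15 lowest, and both Kcnj4 probes are lowest in knock-out 54.

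Several probes were tested for 24 members, and they bear on how far a representative probe stands for its gene. In 11 of these genes all probes had the same sign and in 13 they did not, with a median spread of 0.12 between the lowest and the highest difference. Of all 96 tested probes 6 (6.25%) had an unadjusted p under 0.05, all higher in the knock-out, against 7.95% of all probes. The dimmest Kcnj3 probe among them entered the test only through the knock-outs, where it is high, so no p is read from it. Of the 96 probes 0 passed the adjusted threshold, against 0.129%. In 3 genes (Kcnj3, Kcns2 and Kcnv1) probes of opposite sign included 1 of these 6, in Kcnj3 that dimmest probe.

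Kcnj3, a G-protein-gated inward rectifier subunit, held the largest split. Its brightest probe read 0.67, 0.69 and 0.76 in the controls and 0.70, 0.57 and 0.60 in the knock-outs, a difference of -0.08, and the second differed by 0.11. Its dimmest probe, which represents a sequence tag, read -4.90, -5.42 and -5.52 in the controls, 2 of which detected it, and -4.37, -4.17 and -4.08 in the knock-outs. The fitted difference was 1.08, and 0.66 with a normexp background correction. This probe entered the test only through the knock-outs, where it is high, and its control level is partly not above background, so no fold or p is read from it.

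For Kcns2 the second probe read -3.33, -3.20 and -3.27 in the controls and -2.86, -3.01 and -3.07 in the knock-outs. These groups did not overlap, at 0.29 (adjusted p = 0.496), while the brightest probe gave -0.28. The second probe of Kcnv1, another silent subunit, read -2.43, -2.61 and -2.68 in the controls and -2.03, -2.09 and -2.35 in the knock-outs. Its difference was 0.42 (adjusted p = 0.444), against -0.29 at the brightest probe, where knock-outs 48 and 54 but not 53 lay below the controls. For these genes the array gives no direction that its probes share.

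**Figure D5:**
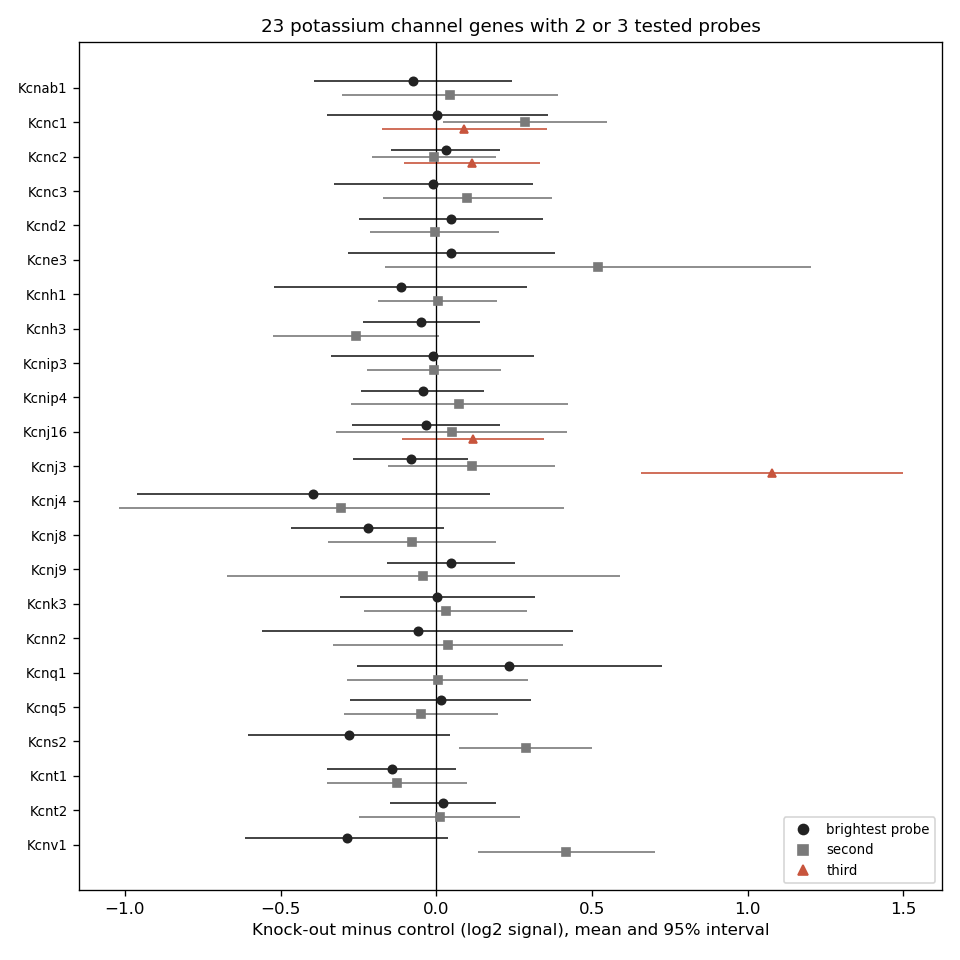
Knock-out minus control difference (log2, horizontal axis) of each tested probe for 23 potassium channel genes with 2 or 3 tested probes, as points with 95% intervals (3 samples per group). Probes of a gene lie on opposite sides of 0 in 13 genes, and the dimmest probe of Kcnj3, at 1.08, stands furthest from its companions.

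Neighbouring genes were compared by sign. By RefSeq on GRCm38.p6 the members lie on 19 chromosomes, and 15 adjacent pairs are within 500 kb of each other. Both genes were tested in 10 pairs, and 6 of these had the same sign. The inward rectifier pair Kcnj9 and Kcnj10 differed by 0.05 and 0.07, Kcnj16 and Kcnj2 both by -0.03, and Kcna5 and Kcna1 by -0.35 and 0.07. Kcnh2, Kcnk3 and Kcnip4 are the members on chromosome 5, where Cux2 also lies, and differed by 0.03, 0.0039 and -0.04.

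Proteins that work with these channels were read from a separate list of 39 genes, which holds the HCN channels, anchoring and scaffold proteins, other accessory subunits and the transporters that set the potassium gradient. Of 36 tested, 17 were higher and 19 lower, with a median of -0.0061 and 0 past an adjusted p of 0.05. An unadjusted p under 0.05 was reached by 1 gene of the 36, against 8.27% of all genes. It was Lrrc55, a gamma subunit of BK channels. It read -1.42, -1.17 and -1.33 in the controls and -0.99, -1.18 and -0.71 in the knock-outs, a difference of 0.34 (adjusted p = 0.609). Control 62 lay just above knock-out 48, so the groups overlapped. The chloride-potassium cotransporter Slc12a5 differed by 0.02.

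Control 15 shared a slide with knock-outs 48 and 54, and knock-out 53 shared the other of the 2 slides with controls 62 and 16. Within the slides the median difference of the tested members was 0.04 and -0.0031, and 27 of 68 genes had the same sign in both. With slide as a block 3 members had an unadjusted p under 0.05, Kcnh5, Kcna5 and Kcne4, against 8.0% of all genes. Of these, Kcne4 entered the test only through the controls, where it is high, so no p is read from it. With the block 0 members passed the adjusted threshold, against 0.0637%. Kcnh5 is the member that reached an unadjusted p under 0.05 both with and without the block, with 0.41 (adjusted p = 0.380) in the former.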

How the data were processed

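Members and gene lists were chosen with earlier results of these data known. Per the file headers, version 9.1.3.1 of Agilent Feature Extraction read the authors' scans, and the deposited processed signal is an intensity with background subtracted and trends within the array removed. The mean and background signals are intensity values as scanned, per the file headers. The authors also deposited a log2 table, whose columns all have a median of 6.75; each ranks as its own array, so it was taken as quantile normalized, and its centring is not stated. The sources used here name no genome build for the array design.

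From 45018 spots per array, 1639 control spots and 120 outlier-flagged spot values were left out, and spots of a probe were averaged on the log2 scale. Probes well above background (at least 50% of their spots) on all 3 arrays of a group were tested, 25517 in all, with limma 3.58.1 (lmFit, eBayes; R 4.3.3) and Benjamini-Hochberg adjustment over all of them. This filter uses the groups, so a probe bright in 1 group can enter through that group. RefSeq held the accession of 104 member probes, all with the array's symbol. Named genes are 4 markers, genes at an unadjusted p under 0.05, the 2 of lowest p and the brightest in each class, and genes with opposite probes; others stand as examples of a class or were chosen for their values. Alternatives changed scaling, background correction, filter, variance model, slide block, source, probe summary and samples. On simulated data with 50 changed probes per fold there were 3 false calls. A few genes are counted but not reported by name here or drawn in the plots of single genes. Figures used matplotlib 3.10.9.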

Additional observations from a re-analysis of the deposited data

How the results depend on the processing

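Under all 18 alternatives the number of potassium channel genes past an adjusted p of 0.05 remained 0. The number at an unadjusted p under 0.05, 2 as reported, was 6 with no scaling between arrays (10.3% of all genes), 0 with normexp (0.649%), 4 with probes of a gene averaged (8.35%) and 3 with the filter of detection on at least 1 array, with eBayes with trend and with slide as a block (7.02%, 8.65% and 8.0%). It was 1 to 5 when each sample was left out in turn. Without control 15 it was 5 (11.5% of all genes), and without knock-out 54 it was 1 (6.92%). These counts include Kcne4 with slide as a block and without knock-out 48, Kcnk7 with the filter of 1 array and Kcnj3 with probes averaged. No p is read from these. The median difference was 0.17 with no scaling, which shifts all genes by 0.17, and 0.071 with normexp (all genes 0.04), and -0.01 to 0.01 without each sample. The number of genes whose groups do not overlap, 3 as reported, was 7 with scaling by the median (13.9% of all genes), 11 with no scaling (19.6%) and 1 with normexp (2.91%), and 7 to 15 without each sample (20.7% to 31.9%), when groups of 2 and 3 meet.

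Under normexp the 25th percentile lay 1.27 to 3.97 log2 units below the 75th, depending on the array, against 6.59 to 7.18 in the reported values. Of 537 values of named genes under other settings, 509 moved by less than the spread between samples, 28 moved further and 0 became calls; 49 values changed sign, none of a called gene. Kcnh5 kept an unadjusted p under 0.05 in 16 of 17 settings run on its probe, with normexp the exception at 0.37 (adjusted p = 0.988), and its lowest adjusted p was 0.179. Kcna4 kept it in 9 of 17. Detection on all 6 arrays rose from 65 to 76 genes with the flag for positive and significant signal. No paired analysis was possible because the groups share no replicate number. The 3 samples per group limit the precision.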

Other observations

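Probes whose accession RefSeq assigns to a Kcn gene while the array files give another name stood outside the comparison. Kcnk9, an acid-sensitive leak channel, was detected on all 6 arrays at 0.51, 0.45 and 0.46 in the controls and 0.50, 0.20 and 0.40 in the knock-outs, a difference of -0.11 (adjusted p = 0.853 by limma). Kcng1, a silent subunit, differed by 0.04 (adjusted p = 0.964) with detection on 5 arrays, and the transcript Kcnmb4os2 by -0.05 (adjusted p = 0.942). A further Kcnj15 probe and 1 of 2 Kcnk10 probes were detected on no array, and the other Kcnk10 probe on 3.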
